A study of Homo sapiens with 6 samples.

Results

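The DNA mismatch repair genes described here were MSH6, MSH3, PMS2, PMS1, MLH3 and EXO1, chosen by name. All 6 were among the 12793 rows of a table of FPKM, a fragment level corrected for transcript length and library total. RNA came from the colorectal cancer line HCT15, an established human line grown in RPMI-1640 medium with serum, and libraries were sequenced as paired reads. In 3 libraries the cells were labelled as RBM15 knockout, made by CRISPR/Cas9 editing, and in the other 3 the cells were labelled WT and carried a control guide (sgctrl). The labels do not give the guide sequence, whether the knockout is 1 clone, or whether libraries of 1 group were separate cultures; the p-values thus reflect the spread among these libraries alone, and that spread may be technical.

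Mismatch repair removes bases that were wrongly paired, and small loops that were left, when DNA was copied. MutS complexes find the error: MSH6 and MSH3 are alternative subunits that join the same partner, MSH6 for single mismatches and the smallest loops, MSH3 for larger loops. MutL complexes then act: PMS2, which nicks the new strand, PMS1, whose role is less clear, and MLH3, best known from meiosis, likewise share a partner. EXO1 is the exonuclease that chews back the nicked strand, after which the replication polymerase fills the gap and a ligase seals it. The common MutS and MutL partners are not analysed here. HCT15 is known as a mismatch repair deficient line that lacks working MSH6 protein, so an MSH6 transcript level here is not a level of working protein. RBM15, the edited gene, encodes an RNA-binding partner of the m6A writer complex, which methylates RNA.

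The table gave no read counts, and sequencing depth is unknown. Column sums lay between 402288 and 409194 FPKM in the libraries labelled knockout and between 409748 and 415057 FPKM in the controls, and no pair of columns was identical. RBM15 itself measured 17.3, 18.5 and 18.03 FPKM in the libraries labelled knockout and 5.97, 5.89 and 5.51 FPKM in the controls. The targeted transcript was therefore higher in the libraries labelled knockout, and every direction below rests on the labels. Epithelial markers were listed for 7 of 10 genes, with a summed level of 3481 to 3621 FPKM in the libraries labelled knockout and 3803 to 3896 FPKM in the controls; KRT20, CDX1 and CEACAM5 were not listed. KRT8 and KRT18 made up most of that sum, and of the 7 genes 5 were lower and 1 higher in the libraries labelled knockout by the limma test described below. The intestinal transcription factor gene CDX2 averaged 9.52 FPKM in the libraries labelled knockout and 20.9 FPKM in the controls (log2 difference -1.06), and the microvillus gene VIL1 3.87 FPKM in the libraries labelled knockout and 17.0 FPKM in the controls (log2 difference -1.89). Markers of other cells were nearly all missing from the table: 1 of 5 leukocyte genes (CD14, 3.85 to 5.48 FPKM in the libraries labelled knockout and 3.18 to 4.11 FPKM in the controls), 1 of 5 fibroblast genes (COL1A1, 0.835 to 1.41 FPKM in the libraries labelled knockout and 0.917 to 1.41 FPKM in the controls) and 0 of 4 endothelial genes were listed.

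The stretches around the transcription starts of EXO1, MSH6 and PMS2 are shown because each holds a match to the E2F motif, the site bound by the factors that drive genes of DNA replication. EXO1 and MSH6 are the genes whose transcripts rose, and PMS2 is a gene with such letters whose transcript did not pass the test. MSH3, which did not pass either, also held such letters in a stretch that is not printed. Each line runs 5′ to 3′ from 250 bases before the RefSeq start to 30 bases after it (GRCh38.p14), and capitals mark the match. EXO1 is read from the plus strand at chr1:241847954-241848233, MSH6 from the plus strand at chr2:47782895-47783174 and PMS2 from the minus strand at chr7:6009077-6009356.
EXO1: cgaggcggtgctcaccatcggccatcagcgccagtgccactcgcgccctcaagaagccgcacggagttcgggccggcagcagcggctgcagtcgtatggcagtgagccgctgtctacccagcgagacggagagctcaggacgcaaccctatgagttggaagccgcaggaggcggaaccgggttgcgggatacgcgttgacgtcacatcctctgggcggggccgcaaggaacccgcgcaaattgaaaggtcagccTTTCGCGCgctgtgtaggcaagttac
MSH6: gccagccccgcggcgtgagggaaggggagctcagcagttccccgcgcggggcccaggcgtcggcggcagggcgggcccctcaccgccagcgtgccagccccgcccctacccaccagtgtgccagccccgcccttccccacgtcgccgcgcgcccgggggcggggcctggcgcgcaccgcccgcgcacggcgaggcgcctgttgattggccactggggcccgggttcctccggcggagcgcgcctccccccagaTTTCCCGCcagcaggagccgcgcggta
PMS2: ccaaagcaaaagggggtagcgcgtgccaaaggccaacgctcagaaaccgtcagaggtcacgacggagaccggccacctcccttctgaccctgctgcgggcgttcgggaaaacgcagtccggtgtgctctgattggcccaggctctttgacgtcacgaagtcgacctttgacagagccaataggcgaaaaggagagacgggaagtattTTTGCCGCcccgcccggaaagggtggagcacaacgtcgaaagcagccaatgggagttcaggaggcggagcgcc
The motif was searched on both strands as TTTCCCGC, TTTCGCGC, TTTGCCGC or TTTGGCGC, and it was chosen after the stretches had been read. The match begins at base 5 after the start in EXO1 and at base 4 in MSH6, and at base -43, before the start, in PMS2. These positions depend on the start used. RefSeq gave 2 stretches for EXO1, 4 for MSH6 and 2 for PMS2, and the first of each is shown. No match lay in the stretches of PMS1 and MLH3, so 4 of the 6 genes held a match, 2 that rose and 2 that did not pass.

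Such letters occurred in 3.15% of the first stretches of 27305 genes in the RefSeq table. Among tested genes with a stretch they occurred in 7.29% of 2386 genes that were higher in the libraries labelled knockout, in 4.32% of 2639 that were lower and in 5.12% of 4124 that passed in neither direction. Of the genes with a stretch in the lists described below, a match was held by 12 of 17 genes of S phase, 3 of 11 of DNA resynthesis and 1 of 9 accessory genes. A match is a run of letters and not a measured binding site. Because the motif was chosen after the stretches of the mismatch repair genes had been read, their count cannot be weighed against these shares. A part of E2F factors in the EXO1 and MSH6 values was not tested.

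EXO1 and MSH6 rose in the libraries labelled knockout, and the other 4 genes did not pass the test. EXO1 was 1.67 times and MSH6 1.28 times its control mean, while PMS1, MSH3, MLH3 and PMS2 stood at 1.05, 0.948, 0.926 and 0.848 times theirs. The test was limma on log2(FPKM + 1) over the 11451 genes averaging 1 FPKM or more, with p-values adjusted over all of them (Benjamini-Hochberg) and a threshold of 0.05. Of all tested genes 54.5% passed, 25.3% as higher and 29.2% as lower, so 2 of 6 higher and 0 of 6 lower is not an excess of changed genes. The median log2 difference was 0.001 for the 6 genes and -0.018 for all tested genes.

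**Figure D1:**
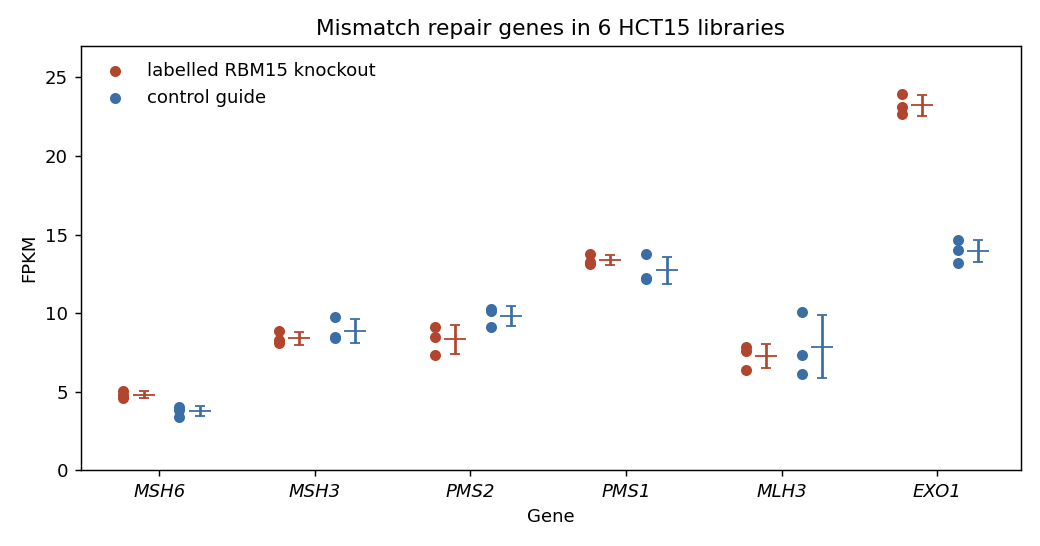
FPKM (vertical axis, from 0) of each mismatch repair gene in the 3 libraries labelled RBM15 knockout (red) and the 3 control libraries (blue); points are libraries, and the bar beside them is the mean with its SD. The groups stand apart for EXO1 (22.6 to 23.9 against 13.2 to 14.6 FPKM) and MSH6 (4.61 to 5.03 against 3.41 to 4.03 FPKM), and they overlap for the other 4 genes.

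Among the MutS subunits, MSH6 had 4.61, 5.03 and 4.78 FPKM in the libraries labelled knockout and 4.03, 3.41 and 3.84 FPKM in the controls. The groups did not overlap, and control library 2 was the lowest of the 6. The means were 4.81 ± 0.213 and 3.76 ± 0.316 FPKM (SD, n = 3 each), and the log2 difference was 0.29 (SE 0.070, 95% interval 0.12 to 0.45, limma adjusted p = 0.0114). The exact 2-sided permutation test of the FPKM gave p = 0.1, the smallest that 3 against 3 libraries can give. MSH6 (ENSG00000116062) spans bases 47695530 to 47810101 of chromosome 2 on the plus strand (GENCODE 29, GRCh38), a stretch that begins upstream of the RefSeq start used for the stretch above. Its exons share 1785 bases, 16.2% of the annotated MSH6 exonic sequence, with FBXO11 on the other strand. FBXO11, a ubiquitin ligase subunit gene, averaged 15.4 FPKM in the libraries labelled knockout and 16.6 FPKM in the controls (log2 difference -0.095, limma adjusted p = 0.3). The sources used here do not state whether strand was used in counting, and the part of shared reads in the MSH6 values was not tested.

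MSH3 had 8.07, 8.87 and 8.26 FPKM in the libraries labelled knockout and 8.38, 9.73 and 8.48 FPKM in the controls. The groups overlapped, with library 2 the highest of each. The means were 8.40 ± 0.415 and 8.86 ± 0.751 FPKM, and the log2 difference was -0.068 with a 95% interval from -0.23 to 0.093 (limma adjusted p = 0.428). MSH3 (ENSG00000113318) spans bases 80654648 to 80876460 of chromosome 5 on the plus strand.

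In every library MSH6 had a lower FPKM than MSH3. A level set against that of another gene depends on the gene models used, which the sources used here do not state. The ratio of MSH6 to MSH3 was 0.571, 0.568 and 0.579 in the libraries labelled knockout and 0.481, 0.351 and 0.452 in the controls. All 3 libraries labelled knockout lay above all 3 controls, and the controls spread far more. On the log2 scale the ratio averaged -0.81 ± 0.014 in the libraries labelled knockout and -1.24 ± 0.241 in the controls, a difference of 0.43 (exact 2-sided permutation p = 0.1, the smallest possible). The difference was 0.30 without control library 2.

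Among the MutL subunits, PMS2 had 8.49, 7.36 and 9.15 FPKM in the libraries labelled knockout and 10.3, 9.09 and 10.1 FPKM in the controls. The groups overlapped only between knockout library 3 and control library 2. The means were 8.33 ± 0.905 and 9.82 ± 0.639 FPKM, and the log2 difference of -0.22 (SE 0.083, 95% interval -0.41 to -0.02) missed the threshold after adjustment (limma adjusted p = 0.0618). It passed when knockout library 3 was left out (log2 difference -0.28, adjusted p = 0.0326). PMS2 (ENSG00000122512) spans bases 5973239 to 6009125 of chromosome 7 on the minus strand. GENCODE 29 lists 11 PMS2 pseudogene copies, all on chromosome 7 and none of them in the table, so the PMS2 value depends on how reads of near-identical copies were assigned. AIMP2, which encodes a scaffold of the tRNA synthetase complex, starts 120 bases away on the other strand. AIMP2 averaged 27.8 ± 1.89 FPKM in the libraries labelled knockout and 27.5 ± 2.25 FPKM in the controls (limma adjusted p = 0.874).

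PMS1 had 13.7, 13.1 and 13.3 FPKM in the libraries labelled knockout and 13.7, 12.2 and 12.2 FPKM in the controls. Control library 1 stood level with the highest library labelled knockout. The log2 difference was 0.070 with a 95% interval from -0.062 to 0.20 (limma adjusted p = 0.323). PMS1 (ENSG00000064933) spans bases 189784085 to 189877629 of chromosome 2 on the plus strand. ORMDL1, a regulator of sphingolipid synthesis, starts 286 bases away on the other strand and shares 103 exonic bases with it. ORMDL1 averaged 26.3 ± 1.2 FPKM in the libraries labelled knockout and 27.9 ± 0.353 FPKM in the controls (limma adjusted p = 0.114).

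MLH3 had 7.85, 6.39 and 7.58 FPKM in the libraries labelled knockout and 10.1, 6.14 and 7.36 FPKM in the controls. The controls alone spanned 1.64-fold, the widest range of any of the 6 genes in either group, and enclosed all 3 libraries labelled knockout. The log2 difference was -0.079 with a 95% interval from -0.45 to 0.29 (limma adjusted p = 0.697), so the interval holds differences of the size seen for MSH6 in both directions. Its sign turned without control library 1 (0.093) and without knockout library 2 (0.00048). MLH3 (ENSG00000119684) spans bases 75013764 to 75051532 of chromosome 14 on the minus strand.

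Of the FPKM summed over PMS1, PMS2 and MLH3, PMS2 made up 28.2%, 27.4% and 30.5% in the libraries labelled knockout and 30.1%, 33.1% and 34.1% in the controls. Its share averaged 28.7% ± 1.59 in the libraries labelled knockout and 32.4% ± 2.06 in the controls, a difference of -3.74 percentage points (exact 2-sided permutation p = 0.2). PMS1 held the largest share in every library, 44.3% to 48.8% in the libraries labelled knockout and 40.3% to 44.5% in the controls (exact 2-sided permutation p = 0.2). The groups overlapped for both shares.

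**Figure D2:**
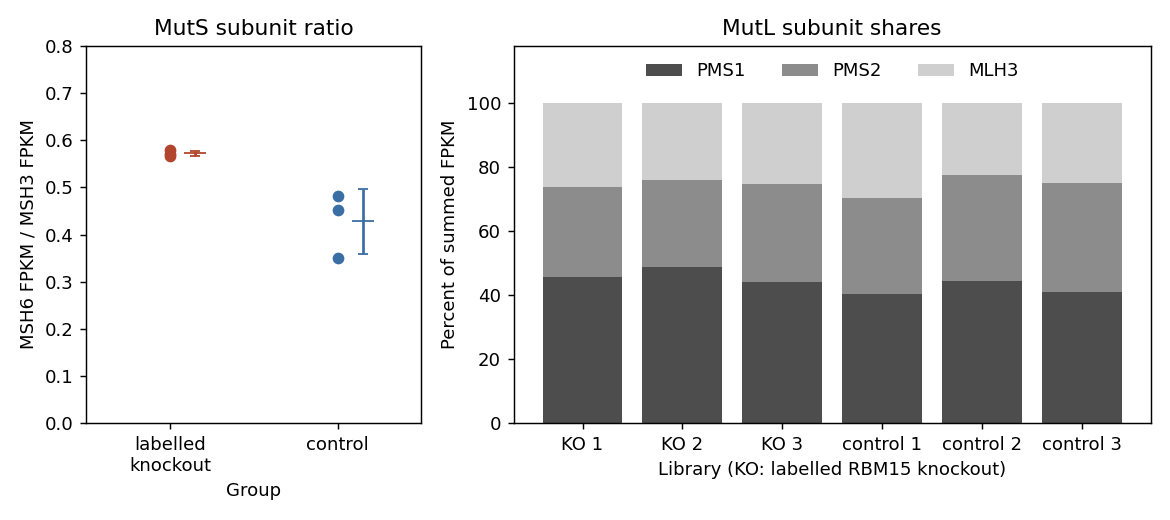
Left, MSH6 FPKM divided by MSH3 FPKM in each library (points) with the mean and SD of each group; right, the percent of summed FPKM held by PMS1, PMS2 and MLH3 in each library. The ratio lies at 0.568 to 0.579 in the libraries labelled knockout and at 0.351 to 0.481 in the controls, and PMS1 is the largest share in all 6 libraries.

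EXO1 had 23.1, 22.6 and 23.9 FPKM in the libraries labelled knockout and 14.6, 13.2 and 14.01 FPKM in the controls. The lowest library labelled knockout stood well above the highest control. The means were 23.2 ± 0.662 and 14.0 ± 0.710 FPKM, and the log2 difference was 0.70 (SE 0.048, 95% interval 0.58 to 0.81, limma adjusted p = 5.62e-05). By the exact permutation test (2-sided) p was 0.1, the smallest possible. Of all tested genes 98.5% had a lower log2 difference than EXO1 and 85.3% a lower one than MSH6. EXO1 (ENSG00000174371) spans bases 241847967 to 241895148 of chromosome 1 on the plus strand, and its exons overlap those of no other gene in GENCODE 29. As for MSH6, this span begins upstream of the RefSeq start used for the printed stretch.

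**Figure D3:**
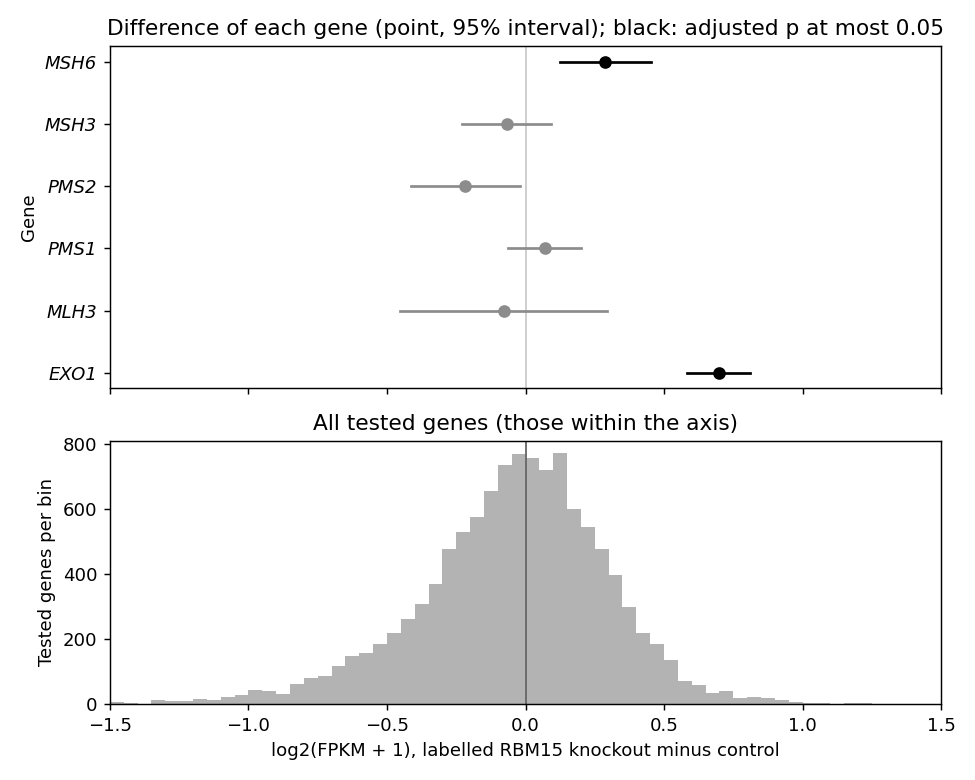
Top, the log2 difference of each mismatch repair gene (labelled RBM15 knockout minus control) with its 95% interval, black where the adjusted p was at most 0.05; bottom, the number of tested genes in each bin of the same axis, for those between -1.5 and 1.5. EXO1 (0.70) lies at the right edge of the distribution and MSH6 (0.29) on its right flank, while the other 4 genes lie between -0.22 and 0.070.

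The groups stood apart for 2 of the 6 genes, both higher, where 63% of all tested genes stood apart 29.6% as higher and 33.4% as lower. Summed over the 6 genes, the level was 65.9, 63.4 and 66.99 FPKM in the libraries labelled knockout and 61.1, 53.8 and 56.02 FPKM in the controls (exact 2-sided permutation p = 0.1). Without EXO1 the sums were 42.8, 40.7 and 43.05 FPKM in the libraries labelled knockout and 46.5, 40.6 and 42.01 FPKM in the controls (exact 2-sided permutation p = 0.9), and the groups overlapped.

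By FPKM, which depends on the gene models used, EXO1 had the highest level of the 6 genes and MSH6 the lowest in both groups. In the libraries labelled knockout EXO1 was followed by PMS1, MSH3, PMS2 and MLH3, and the values of MSH3 and PMS2, and of PMS2 and MLH3, overlapped. In the controls the order after EXO1 was PMS1, PMS2, MSH3 and MLH3. There the values of EXO1 and PMS1 overlapped too, as did those of PMS2 and MSH3 and of MSH3 and MLH3. The means over the 6 libraries placed the genes between MSH6, above 28.5% of all rows, and EXO1, above 66.4%.

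Genes listed for DNA resynthesis moved in both directions. The DNA resynthesis list held 14 genes, of which 8 rose, 2 fell and 4 did not pass, with a median log2 difference of 0.12; of all tested genes 25.3% were higher and 29.2% lower. Without control library 1 the count was 5 higher and 2 lower, and with a GC and length trend removed (added after the data were seen) it was 11 higher and 1 lower. The largest rise was that of RFC3, a subunit of the loader that places the sliding clamp on DNA, with 40.1 ± 0.823 FPKM in the libraries labelled knockout and 30.2 ± 0.721 FPKM in the controls (log2 difference 0.40). PCNA, the sliding clamp itself, averaged 309 ± 4.18 FPKM in the libraries labelled knockout and 256 ± 0.658 FPKM in the controls (log2 difference 0.27, limma adjusted p = 0.000127). RPA1, which coats single-stranded DNA, rose by 0.25 on the log2 scale. POLD4, the small accessory subunit of DNA polymerase delta, fell to 8.99 ± 0.877 FPKM in the libraries labelled knockout, against 19.0 ± 0.733 FPKM in the controls (log2 difference -1.01, limma adjusted p = 5.64e-05). POLD2 of the same polymerase also fell, to 94.7 ± 3.75 FPKM in the libraries labelled knockout, against 112 ± 4.3 FPKM in the controls. Its other listed subunits did not fall. POLD3 rose (log2 difference 0.20, limma adjusted p = 0.0133), and POLD1 did not pass (log2 difference 0.029, limma adjusted p = 0.534). LIG1, the ligase that seals the nick, averaged 25.1 ± 0.796 FPKM in the libraries labelled knockout and 23.8 ± 0.773 FPKM in the controls and did not pass (limma adjusted p = 0.18).

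Of 9 accessory genes, 6 rose, 0 fell and 3 did not pass (median log2 difference 0.24). Over all tested genes 25.3% were higher and 29.2% lower, and this list too was chosen with earlier results of these data known. The 3 that did not pass were HMGB1, FAN1 and MBD4 (log2 differences 0.22, 0.017 and -0.021). POLE, the catalytic subunit of leading-strand polymerase epsilon, averaged 15.8 ± 0.732 FPKM in the libraries labelled knockout and 11.2 ± 0.621 FPKM in the controls (log2 difference 0.46). CHAF1A, a subunit of the chromatin assembly factor that works behind the fork, rose by 0.38 on the log2 scale. SETD2, which writes the histone mark that MSH6 can read, rose by 0.29, and MCM8, a helicase gene, by 0.28. Of the MutS homologues known from meiosis, MSH4 was not listed. MSH5 averaged 5.27 ± 0.99 FPKM in the libraries labelled knockout and 7.58 ± 2.17 FPKM in the controls, and it did not pass (log2 difference -0.43, limma adjusted p = 0.115).

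Most S phase genes were higher, like EXO1 and MSH6, and they are given beside them, since EXO1 is known to be made mostly in cycling cells. Of 21 such genes 18 rose, 1 fell and 2 did not pass in the libraries labelled knockout, with a median log2 difference of 0.45. The 2 that did not pass were E2F1 and GINS3 (log2 differences 0.066 and -0.044). Over all tested genes 25.3% were higher and 29.2% lower, and the list was chosen with earlier results of these data known. The list summed to 1509 to 1530 FPKM in the libraries labelled knockout and 1141 to 1155 FPKM in the controls. The helicase subunit gene MCM4 averaged 128 ± 0.863 FPKM in the libraries labelled knockout and 69.9 ± 1.22 FPKM in the controls (log2 difference 0.87). The cyclin genes CCNE2 and CCNE1 rose by 0.79 and 0.77 on the log2 scale, and the replication fork gene GINS1 by 0.75. The licensing gene CDT1 was the 1 that fell (18.1 ± 0.146 FPKM in the libraries labelled knockout and 24.7 ± 1.51 FPKM in the controls; named after its value was seen). In bulk RNA, more cells in S phase and more RNA per cell cannot be told apart, and the part of either in the EXO1 and MSH6 values was not tested.

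**Figure D4:**
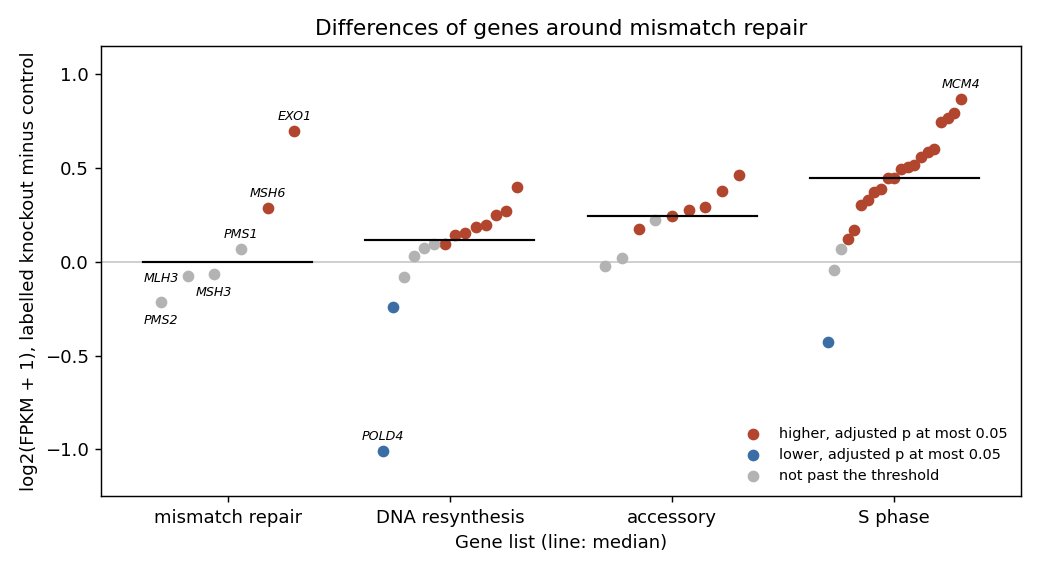
Log2 difference (labelled RBM15 knockout minus control) of each tested gene in 4 lists, red and blue where it passed as higher or lower and grey where it did not, with the list's median as a line. The medians are 0.001 for the mismatch repair genes, 0.12 for DNA resynthesis, 0.24 for the accessory genes and 0.45 for S phase, and POLD4 (-1.01) lies below all others.

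The tested genes whose log2(FPKM + 1) followed each mismatch repair gene most closely over the 6 libraries were found by Pearson correlation, which mixes the difference between groups with the spread inside them. EXO1 was followed most closely by WDR36, a ribosome biogenesis factor, and by TNFAIP1 (r = 0.9997 and 0.9992), and 1390 genes lay above r = 0.95. WDR36 averaged 23.8 FPKM in the libraries labelled knockout and 14.1 FPKM in the controls, close to the EXO1 means. MSH6 was followed by RASAL2, a GTPase-activating protein gene for Ras, and IKBIP (r = 0.998 and 0.996), with 254 genes above 0.95. For PMS2 the closest were CTPS2, a CTP synthase, and RUFY2 (r = 0.996 and 0.995), with 50 genes above 0.95. Far fewer genes followed the remaining members that closely, 10 for PMS1 (led by SCO1 and ABRAXAS2), 4 for MSH3 (led by HLA-DMA and ZSWIM5) and 3 for MLH3 (led by TMEM87B and AFTPH).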

How the data were processed

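RNA-seq of 6 HCT15 libraries was deposited by the authors as 1 table of FPKM, per the file headers. The submitters' processing notes name HISAT2 2.2.1, StringTie 2.0.4 and hg38; settings, annotation, strand and row filter were not stated in the sources used here. Columns were matched to libraries by name and libraries to groups by title.

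FPKM are not counts, so log2(FPKM + 1) of genes averaging 1 FPKM or more was fitted with limma 3.58.1 in R 4.3.3, with a variance trend and no covariates. The fit was tested on simulated data. Differences on that scale understate the change of low genes. Ratios, shares, sums and single genes used exact 2-sided permutation tests over libraries (scipy 1.17.1, Python 3.11.15). Lists are described by counts and medians. Gene positions are from GENCODE 29 (GRCh38) and the printed stretches from RefSeq (GRCh38.p14), the first of each gene; all 6 genes matched.

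The members and lists were chosen with earlier results of these data known. Named were all 6 genes, RBM15, up to 4 changed genes of each list by size of difference, the 2 genes most correlated with each member, and listed genes starting within 1000 bases on the other strand, of which 1 is not reported here; FBXO11, LIG1, CDT1, POLD2 and the marker genes were added beside these. As alternatives the pseudocount was set to 0.1, the filter was dropped or raised to 5 FPKM, and the fit was repeated with 3 other scalings, no variance trend, a replicate block, leaving out each library and, added after the data were seen, removal of a GC and length trend.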

Additional observations from a re-analysis of the deposited data

How the results depend on the processing

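Over 15 alternatives EXO1 stayed between 0.66 and 0.74 on the log2 scale (adjusted p = 3.87e-05 to 0.000892), and over the 14 in which MSH6 was tested it stayed between 0.21 and 0.39 (adjusted p = 0.00329 to 0.0379), both past the threshold each time. The filter, the variance trend and the replicate block cannot alter a gene's log2 difference, only its adjusted p. The count of changed mismatch repair genes was 2, but 1 with a filter at 5 FPKM, which leaves MSH6 untested. It was 2 to 3 when each library was left out, and MSH5, of the other MutS homologues, gave 0 to 1 calls in the same way (1 without control library 2). Without 1 library, MLH3 turned to 0.093 (control library 1) and 0.000482 (knockout library 2); the cause was not tested. PMS2 ranged from -0.28 to -0.14 (adjusted p = 0.0271 to 0.158). Libraries of the same replicate number did not deviate together over the tested genes (r = -0.0354, -0.0367 and 4.54e-05). That cannot show whether they were grown or prepared together, and the labels state no pairing. With the replicate block 5782 genes passed instead of 6245, PMS2 passed at -0.22 (adjusted p = 0.0271), and the MSH6 to MSH3 ratio, whose difference of 0.43 a block cannot alter in this balanced design, had p = 0.25 (exact sign-flip permutation), the smallest that 3 pairs can give. Of 195 values over all alternatives, 189 were labelled as unchanged. For a gene's difference that meant the same direction and side of the threshold, and for ratios and shares the same direction alone. Counts had to stay within 1.5 times, so 3 mismatch repair genes instead of 2 still counted as unchanged. No sequencing depth could be recovered, so precision rests on 3 libraries per group.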
